A study of Rattus norvegicus with 19 samples.

Results

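Mbp, Pmp22, S100b and Sox10 are 4 genes by which Schwann cells and their myelin are commonly recognised, and their mRNA was followed here in rat mammary tissue. They were chosen by symbol: every non-control probe whose RefSeq accession belongs to one of them was taken. That gave 6 probes on 20 spots for 4 of the 15168 gene symbols on the array. RNA from 13 mammary carcinomas and 6 normal mammary glands was measured on 19 single-colour arrays, 1 array per sample. All samples came from female rats that were F1 hybrids of Sprague-Dawley and Copenhagen parents. The carcinomas are labelled as induced by radiation, while the protocol says of all rats that they either received 4 Gy of gamma rays over the whole body at 7 weeks of age or none. For the normal glands the labels leave irradiation unstated, and they give no age at sampling, so irradiation and tumour state cannot be told apart. Nothing in the labels says that each sample is a separate animal, and p-values measure the spread between these samples.

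Schwann cells ensheathe the axons of peripheral nerves, and some of them wrap an axon in many turns of compacted membrane, the myelin sheath. Mbp encodes myelin basic protein, which holds the cytoplasmic faces of the membrane together, and Pmp22 encodes a small tetraspan protein of peripheral myelin. S100b is a calcium-binding protein used as a stain for Schwann cells, and it is also made by fat cells. Sox10 is the transcription factor that Schwann cells need from neural crest onwards, and it is also made by mammary epithelial cells. The mammary gland holds nerve fibres with such cells, beside epithelium, fat, fibroblasts, vessels and immune cells.

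RefSeq's rat promoter sequences (build GRCr8) were available for 3 of the 4 genes and are shown because SOX proteins bind short motifs of the kind ACAAT or ACAAAG. Both motifs, which share their first letters, were searched on both strands of the 250 bases upstream of each annotated start, and matches are in capitals. ACAAT stood in 30.0% of 33469 such windows of all genes, ACAAAG in 16.3% and either in 40.6%. The S100b window, chr20:12381082-12381331 on the minus strand, held 1 match, which began 132 bases before the start. The Pmp22 window, chr10:48294682-48294931 on the plus strand, held 0 matches. Mbp has a pair of annotated starts, and the window of the downstream one, chr18:78209995-78210244 on the plus strand, held 3 matches, while the upstream window held 0.
S100b: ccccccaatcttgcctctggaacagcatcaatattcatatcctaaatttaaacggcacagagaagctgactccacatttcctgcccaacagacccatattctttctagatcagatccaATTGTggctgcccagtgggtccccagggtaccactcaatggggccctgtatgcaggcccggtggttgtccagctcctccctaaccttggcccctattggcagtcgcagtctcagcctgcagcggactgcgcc
Pmp22: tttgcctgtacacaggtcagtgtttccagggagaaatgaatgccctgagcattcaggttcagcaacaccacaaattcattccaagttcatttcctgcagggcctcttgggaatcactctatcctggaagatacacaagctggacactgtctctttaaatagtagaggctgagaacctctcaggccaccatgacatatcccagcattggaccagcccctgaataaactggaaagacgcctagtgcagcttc
Mbp: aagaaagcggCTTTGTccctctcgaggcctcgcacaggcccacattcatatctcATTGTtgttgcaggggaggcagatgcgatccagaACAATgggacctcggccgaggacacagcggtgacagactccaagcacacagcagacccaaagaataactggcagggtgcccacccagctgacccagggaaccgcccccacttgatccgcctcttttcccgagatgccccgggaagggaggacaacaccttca
Such matches only describe letters, and binding was not measured.

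Values are log2 intensities relative to each array's 75th percentile, so 0 is the level at that percentile. Mbp (by 1 of its probes), Pmp22 and S100b were lower in carcinomas than in normal glands, by 13.4-fold, 3.87-fold and 11.6-fold, and Sox10 did not pass the test. A probe was tested when it was well above background on at least 6 of the 19 arrays, and passing means a Benjamini-Hochberg adjusted p under 0.05 from limma over all 24591 tested probes. Of the 5 tested probes of the 4 genes 3 passed, where 20.6% of all probes did (22.9% of all genes, by 1 probe each). For the same 3 probes every carcinoma lay below every normal gland, an arrangement found for 1.44% of all probes. In bulk tissue, fewer cells of a type and less RNA per cell cannot be told apart.

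**Figure D1:**
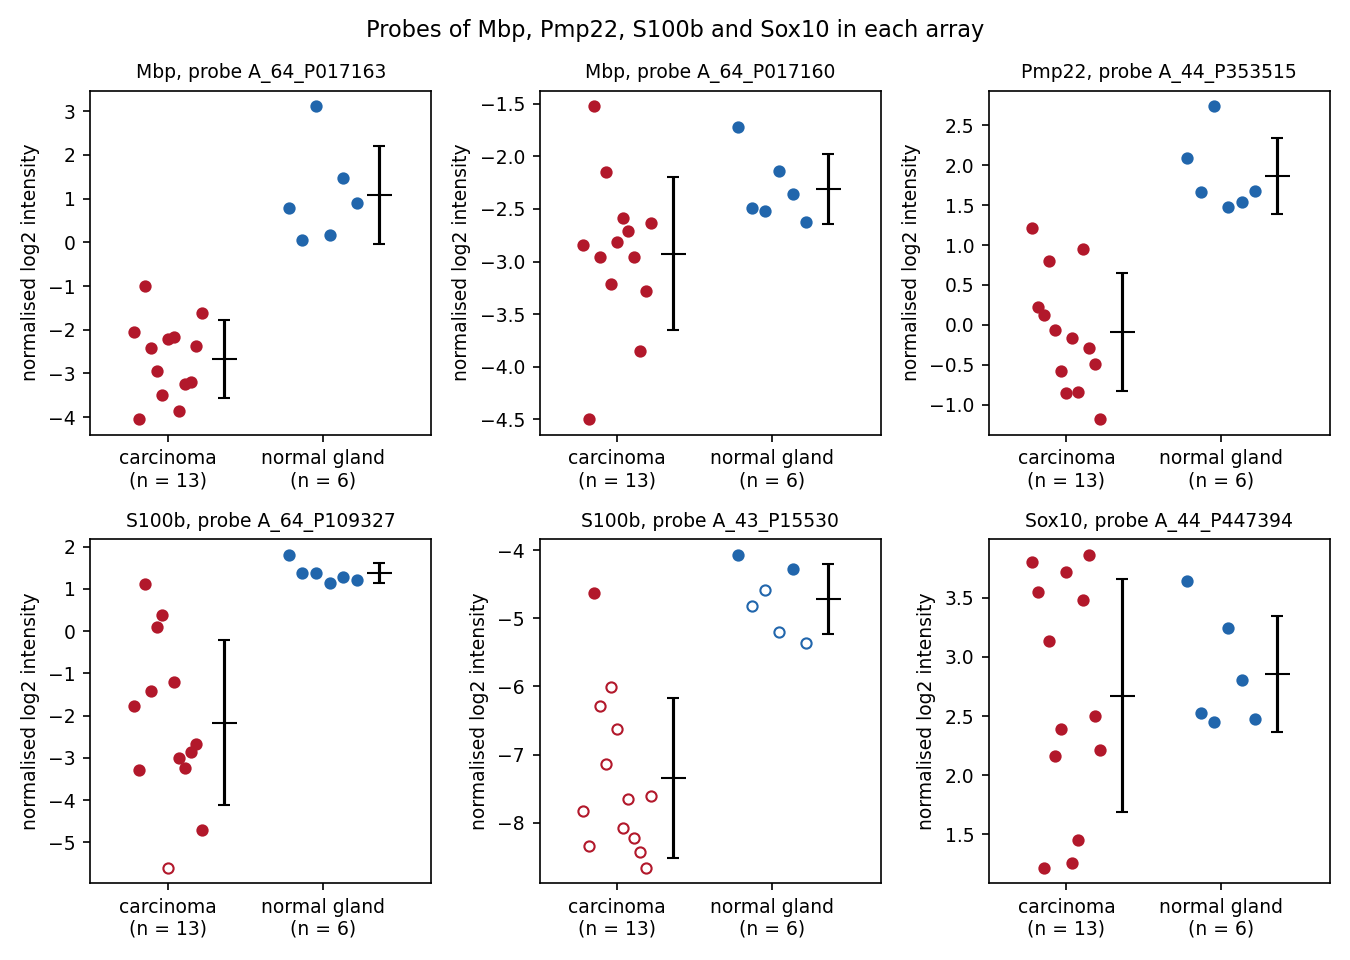
Normalised log2 intensity (array 75th percentile at 0) of the 6 probes, 1 point per array, carcinomas left and normal glands right, with mean and SD as black bars. Open points are arrays where the probe was not well above background. The carcinoma and normal gland points are apart for Mbp probe A_64_P017163, Pmp22 and S100b probe A_64_P109327, and they overlap for Sox10.

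Mbp was measured by a pair of probes annotated to different RefSeq transcripts. With probe A_64_P017163 (NM_001025291), the carcinomas had a lowest value of -4.04, a median of -2.41 and a highest of -1.01. The normal glands had 0.78, 0.05, 3.11, 0.17, 1.47 and 0.90 in glands 1 to 6 with this probe. The groups did not overlap, and gland 3 stood above the other normal glands. The mean was -2.66 ± 0.89 in carcinomas and 1.08 ± 1.12 in normal glands (SD, n = 13 and 6). The log2 change was -3.74 ± 0.44 (SE, 95% confidence interval -4.66 to -2.83, limma adjusted p = 8.64e-06).

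With Mbp probe A_64_P017160 (NM_001025289) the groups overlapped. Carcinomas ranged between -4.50 and -1.52 with a median of -2.85, and normal glands between -2.63 and -1.73 with a median of -2.42. The log2 change was -0.62 ± 0.31 (SE, 95% confidence interval -1.26 to 0.03) and did not pass (limma adjusted p = 0.167). Of the 13 carcinomas, 10 lay below the lowest normal gland, and carcinoma 3 lay above the highest. After normexp background correction this probe did pass, at -0.70 (limma adjusted p = 0.00941), in a setting where the median of all genes fell by 0.38; relative to that median its change was -0.32. The changes of the 2 Mbp probes differed by -3.13 (exact permutation test over 27132 splits of the arrays, 2-sided, adjusted p = 0.000258 over 7 comparisons, raw p = 3.69e-05, the smallest these splits can give). Probe sequences were not used here, so where on the transcripts the probes lie was not examined.

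**Figure D2:**
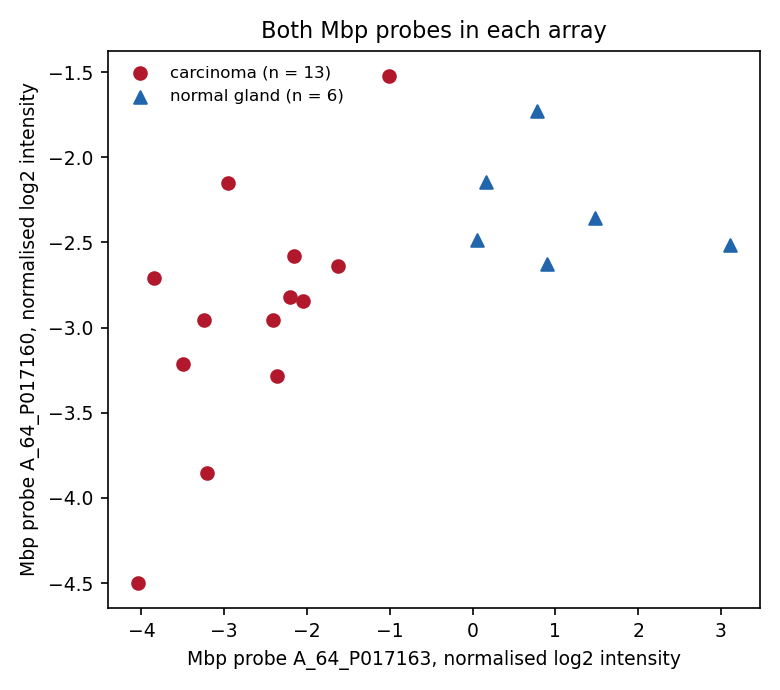
Both Mbp probes in each array, in normalised log2 intensity, with probe A_64_P017163 on the horizontal axis and probe A_64_P017160 on the vertical axis. The 13 carcinomas (circles) lie left of the 6 normal glands (triangles) along the horizontal axis and overlap them along the vertical one.

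Pmp22 (probe A_44_P353515, NM_017037) was lower in every carcinoma. The carcinomas had a lowest value of -1.18, a median of -0.16 and a highest of 1.22, the last in carcinoma 1. The normal glands had 2.09, 1.66, 2.74, 1.47, 1.55 and 1.67 in glands 1 to 6. The gap between the highest carcinoma and the lowest normal gland was thus small, and gland 3 was again the highest. The mean was -0.09 ± 0.74 in carcinomas and 1.86 ± 0.48 in normal glands (SD, n = 13 and 6). The log2 change was -1.95 ± 0.31 (SE, 95% confidence interval -2.60 to -1.30, limma adjusted p = 0.000334).

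S100b (probe A_64_P109327, NM_013191) was nearly even among normal glands and spread widely among carcinomas. The carcinomas had a lowest value of -5.59, a median of -2.67 and a highest of 1.11. The normal glands had 1.81, 1.37, 1.38, 1.14, 1.29 and 1.22 in glands 1 to 6. Carcinoma 3, at 1.11, came close to the lowest normal gland, carcinomas 6 and 5 had 0.37 and 0.11, and the other 10 lay at -1.21 or lower. Carcinoma 7, the lowest, was the array on which the probe was not well above background. The mean was -2.17 ± 1.96 in carcinomas and 1.37 ± 0.23 in normal glands (SD, n = 13 and 6). The log2 change was -3.54 ± 0.74 (SE, 95% confidence interval -5.07 to -2.00, limma adjusted p = 0.00265).

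A dimmer S100b probe, A_43_P15530, spotted 10 times, was well above background on 1 carcinoma (carcinoma 3) and 2 normal glands (glands 1 and 5), so it was not tested. Its mean signal was -7.35 ± 1.17 in carcinomas and -4.71 ± 0.51 in normal glands (SD, n = 13 and 6), mostly below the detection flag. Carcinoma 3 was also the highest carcinoma with this probe, at -4.62.

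Sox10 (probe A_44_P447394, NM_019193) was well above background in every sample. The carcinomas had a lowest value of 1.22, a median of 2.50 and a highest of 3.87. The normal glands had 3.65, 2.52, 2.45, 3.25, 2.80 and 2.48 in glands 1 to 6. Of the carcinomas 6 lay below all normal glands, 4 within their range and 3 above it. The 3 lowest were carcinomas 3, 8 and 9 with 1.22, 1.26 and 1.45, and the 3 above the range were carcinomas 11, 1 and 7 with 3.87, 3.80 and 3.72. The mean was 2.67 ± 0.98 in carcinomas and 2.86 ± 0.49 in normal glands (SD, n = 13 and 6). The log2 change was -0.18 ± 0.40 (SE, 95% confidence interval -1.01 to 0.64, limma adjusted p = 0.784), so changes within that interval were not excluded by these arrays.

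Each gene taken by its brightest probe (A_64_P017163 for Mbp), the 4 genes changed unequally. Mbp probe A_64_P017160, at -0.62, fell less than Pmp22, at -1.95, and was not compared with the other genes. The change of Mbp was 1.79 further down than that of Pmp22 (difference -1.79, exact permutation test, adjusted p = 0.00671) and differed from that of Sox10 by -3.56 (exact permutation test, adjusted p = 0.000645). Pmp22 differed from Sox10 by -1.77 (exact permutation test, adjusted p = 0.00241). S100b differed from Sox10 by -3.35 (exact permutation test, adjusted p = 0.0106), but by -2.88 among the samples with a numeric code alone (exact permutation test, adjusted p = 0.0639). The difference between Mbp and S100b was -0.21 and did not pass (exact permutation test, adjusted p = 0.821). Pmp22 against S100b, at 1.59, did not pass either (exact permutation test, adjusted p = 0.0680), although it did without carcinoma 3, 5 or 6, at 1.84, 1.77 and 1.84 with adjusted p of 0.0241, 0.0389 and 0.0249.

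**Figure D3:**
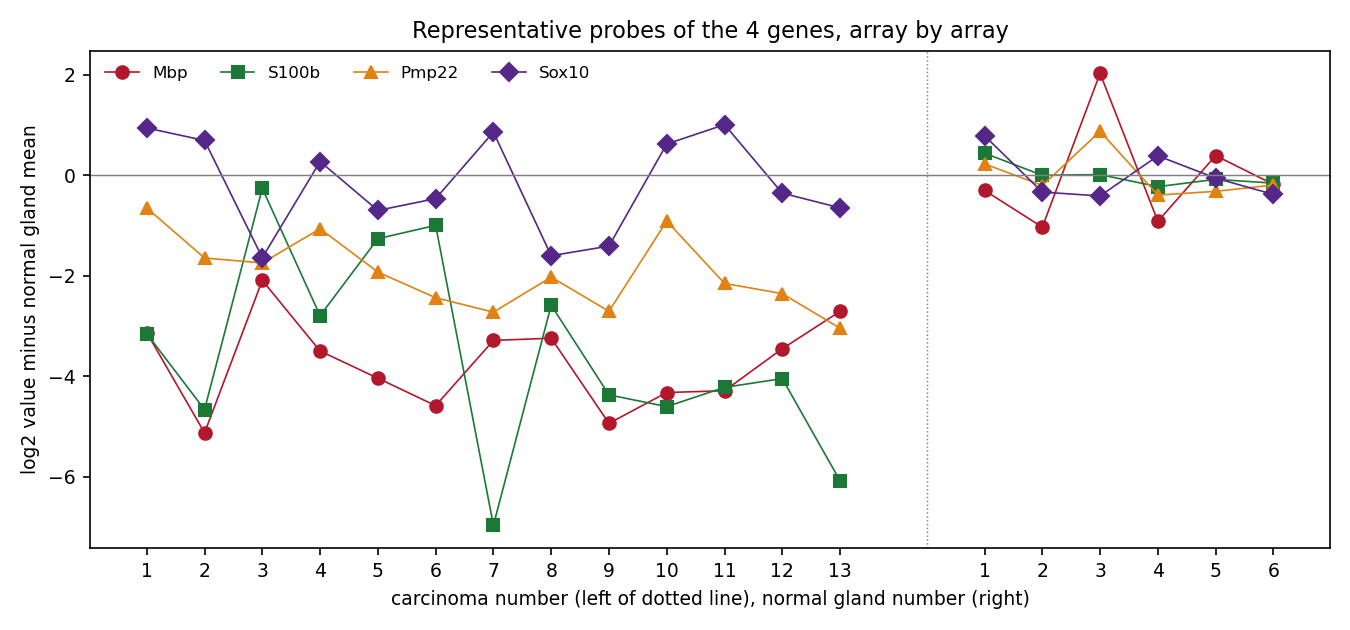
Representative probe of each gene in each array as log2 value minus the mean of the normal glands, carcinomas 1 to 13 left of the dotted line and normal glands 1 to 6 right of it. Lines join the points of a gene for reading only. Mbp, Pmp22 and S100b stay below 0 in all carcinomas, S100b comes nearest to it in carcinoma 3, and Sox10 lies on both sides of it.

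Among the 13 carcinomas the genes did not move together by any test that passed. Pearson's r was 0.32 for Pmp22 with S100b, 0.39 for Pmp22 with Sox10 and -0.48 for S100b with Sox10. Their permutation p was 0.286, 0.190 and 0.0959, and adjusted over 46 relations 0.929, 0.873 and 0.803. Spearman's rho was 0.31, 0.24 and -0.50 for the same pairs, and r without the 2 arrays farthest from the median of the first gene was 0.52, 0.12 and -0.31. Mbp had r of 0.01 with Pmp22, 0.13 with S100b and -0.27 with Sox10. Of the 46 relations, 6 were between these genes and 40 with the mean of a cell type's markers. Of all 46, 3 had a raw permutation p under 0.05, and the smallest adjusted p was 0.586. The 3 were Pmp22 with melanocyte markers (r = 0.65, permutation p = 0.0159), Mbp with fat cell markers (0.58, 0.0402) and Pmp22 with endothelial markers (0.57, 0.0408).

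The genes whose pattern was most like each member, by Pearson's r over the 19 arrays after the group means were subtracted, were taken from 12714 genes with a value on every array. For Sox10 they were Zdhhc9 (r = 0.88), Clmn (0.87), Sox13 (0.85), Fam89a (0.84) and Lbp (0.84). For S100b they were Cdo1 (0.85), Prkd3 (0.84), Fcgrt (0.81), Btd (0.81) and Cfap77 (0.81). For Pmp22 they were Cnksr3 (0.81), Maob (0.80), Paqr6 (0.79), Oas1i (0.79) and Ephb2 (0.79). For Mbp they included Mmp27 (0.71), Pcp4l1 (0.71), Aldh3a1 (0.70) and Klra2 (0.68). None of the 4 members was on the list of another, and these values are descriptions over arrays that share brightness and tissue makeup.

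The arrays themselves differed in ways that touch these values. The 75th percentile of raw intensity was 482 to 1417 in carcinomas and 290 to 666 in normal glands. Carcinoma 7 had 482, and each other carcinoma, at 858 or more, was brighter than every normal gland. Of spots, 62.3% to 84.2% (median 80.3%) and 65.5% to 77.2% (median 66.7%) were well above background. Brightness thus went largely with group, and a fit with both can hardly tell them apart. With log2 of that percentile as a covariate in limma, Mbp (probe A_64_P017163) had -3.28 with an adjusted p of 0.0488, Pmp22 -1.95 with an adjusted p of 0.122, and S100b -5.19 with an adjusted p of 0.0501. In that fit 11 genes of all were higher and 170 lower, against 1225 and 1706 without the covariate. Besides the members, 25 of the genes chosen for naming by rule no longer passed in that fit, while Adipoq, Retn, Cd163 and Lyve1 still did. Over all settings, single slides included and single arrays left out aside, the adjusted p lay between 1.61e-06 and 0.188 for Mbp, between 0.000137 and 0.521 for Pmp22 and between 0.000332 and 0.327 for S100b.

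The samples lay on 3 slides, with 4 carcinomas and 3 normal glands on slide 1, 4 and 2 on slide 2, and 5 and 1 on slide 3. Within slides 1, 2 and 3 the change of Mbp (probe A_64_P017163) was -3.83, -3.81 and -3.42, and that of Pmp22 was -1.79, -1.88 and -1.90. S100b changed by -2.49, -3.63 and -4.15 and Sox10 by -0.19, -0.35 and 0.19. The descriptions number some samples and letter others: 3 carcinomas and 1 normal gland carry a letter. All lettered samples lay on slide 3, so the lettered and the slide 3 changes rest on the same single normal gland, gland 6. Among the lettered samples the changes were -3.30 for Mbp, -2.32 for Pmp22, -4.63 for S100b and 0.38 for Sox10, and among the numbered ones -3.86, -1.82, -3.19 and -0.32.

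Other genes of Schwann cells and myelin were taken from 6 lists by role with 67 genes, of which 55 were tested; 7 had no matched probe and 5 were too dim. Among them 18 were lower and 6 higher (32.7% and 10.9%), where 13.3% of all 12803 genes were lower and 9.57% higher, and their median log2 change was -0.21 beside 0.01 for all genes. Leaving out the 4 members, 15 of 51 were lower and 6 higher. Without normal gland 3, 11 of the 55 were lower and 2 higher (1097 and 653 among all genes), and without normal gland 2, 14 and 2 (1134 and 691). The higher count was 3 without carcinoma 5, 9 or 10. Of the 24 called genes 13 passed in all 19 fits that left out 1 array each; Mobp, Cadm4, Erbb2 and Pou3f1 missed the threshold in 2 of these, and Nrg1, Tfap2a and L1cam in 9. With array brightness as a covariate, limma called 3 lower and 0 higher, with 12 and 1 at an unadjusted p under 0.05; the higher count was between 4 and 6 in the other settings run on the lists. Called changes among all genes were 41.8% higher, but 52.6% after quantile normalization and 14.6% after normexp.

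**Figure D4:**
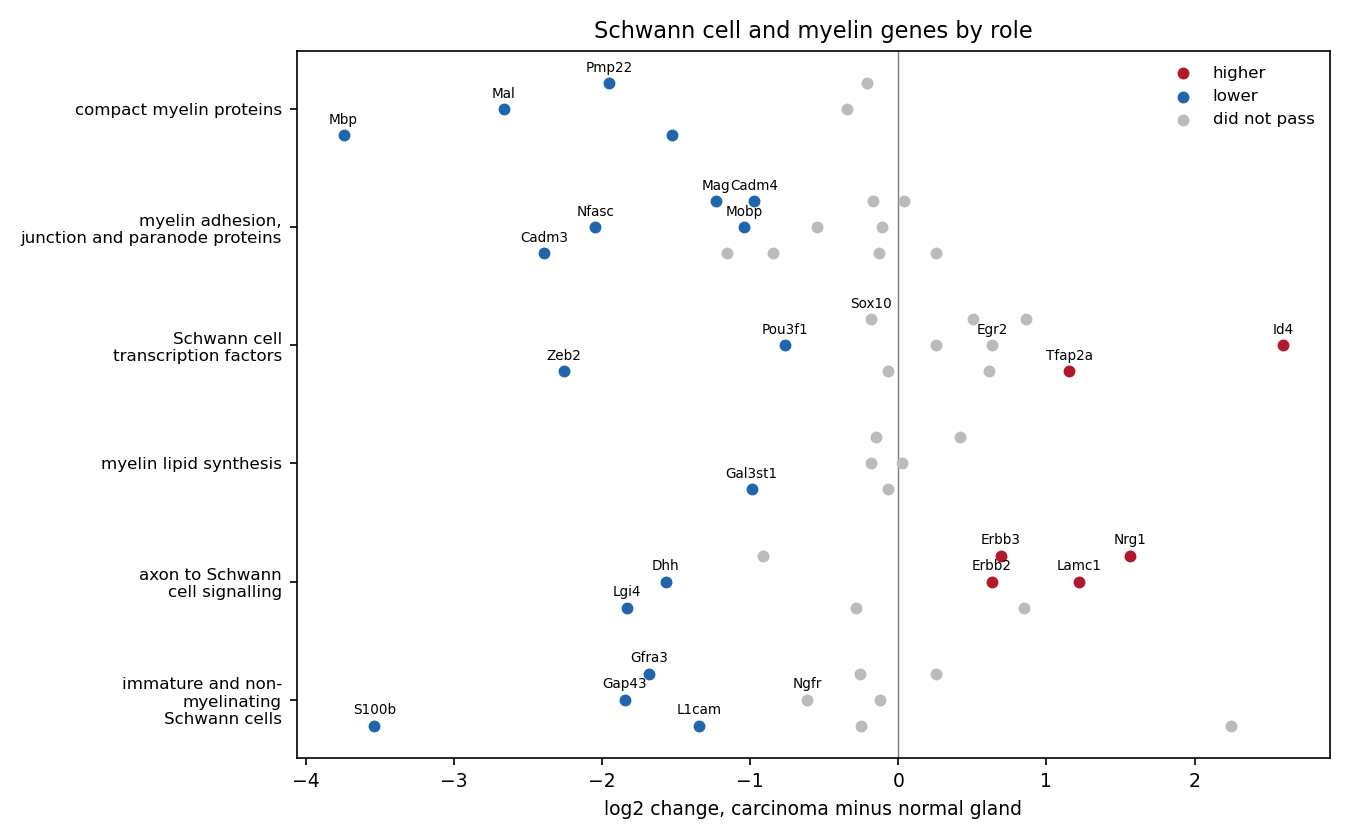
Log2 change (carcinoma minus normal gland) of the tested genes of the 6 lists, 1 row per role and 1 point per gene, with a name beside each gene that the text names. Compact myelin genes lie left of 0, and the signalling row holds both higher and lower genes.

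Of 6 compact myelin genes, 4 were lower (66.7%, where 13.3% of all genes were), 0 higher and 2 did not pass, with a median of -1.74. Besides Mbp and Pmp22, Mal, a proteolipid of membrane rafts, fell by 2.66 (limma adjusted p = 0.000853), but it was well above background in 3 of 13 carcinomas against 5 of 6 normal glands.

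Of 13 adhesion, junction and paranode genes, 5 were lower (38.5%, where 13.3% of all genes were) and 0 higher, with a median of -0.84. The lower count was 2 without normal gland 3 and 0 with brightness as a covariate. Cadm3, an adhesion molecule of the axon side, fell by 2.39 and was well above background in 10 of 13 carcinomas and 6 of 6 normal glands. Its groups did not overlap, with a highest carcinoma at -4.65 and a lowest normal gland at -4.27. All carcinomas lay below all normal glands for 1.44% of all probes. Nfasc, which anchors the node and paranode, fell by 2.04 with 1 probe and had 0.61 with another that did not pass. Mag, a glycoprotein between axon and myelin, fell by 1.23 (limma adjusted p = 0.0132), which was lost without normal gland 2 (-1.02, adjusted p = 0.0520) or gland 3 (-0.96, 0.0546). Mobp and Cadm4 were the remaining lower ones, and another Mobp probe had -0.45 and did not pass (limma adjusted p = 0.401).

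Of 11 transcription factors 2 were higher and 2 lower (18.2% each, where 9.57% and 13.3% of all genes were), and 7, Sox10 among them, did not pass. Without normal gland 2 or gland 3 the count was 1 higher and 1 lower, it was 1 higher without any of carcinomas 4, 5, 6, 8, 9, 10 and 11, and with brightness as a covariate 0 passed. Id4, an inhibitor of basic helix-loop-helix factors, rose by 2.60 (limma adjusted p = 0.00273), and Tfap2a rose by 1.16. Id4 was well above background in 13 of 13 carcinomas and 4 of 6 normal glands. After normexp correction the change of Id4 was 1.24, or 1.62 relative to the median of all genes in that setting. Zeb2, a zinc finger factor required for myelination, fell by 2.26, and Pou3f1 fell by 0.76. Egr2, the factor that drives myelin genes, had 0.64 and did not pass. Its change ran the other way on slide 2 (-1.28) and with brightness as a covariate (-0.70).

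Of 9 signalling genes 4 were higher and 2 lower (44.4% and 22.2%, where 9.57% and 13.3% of all genes were). But 1 was higher without normal gland 2 or gland 3, and 2 without normal gland 4 or 5 or carcinoma 1, 5, 9 or 10. With brightness as a covariate 0 were higher. The neuregulin receptor genes Erbb3 and Erbb2 rose by 0.69 and 0.63, the ligand gene Nrg1 by 1.57 and the laminin gene Lamc1 by 1.22, all of which epithelial cells also make, and of these 4 Lamc1 alone passed with each array left out in turn. Erbb3 was close to the threshold (limma adjusted p = 0.0474) and missed it when any of 14 single arrays was left out, and after normexp correction its change was -0.0058, or 0.37 relative to the median of all genes in that setting. Dhh, a hedgehog ligand of Schwann cells, fell by 1.57, and Lgi4, a secreted protein that Schwann cells need to ensheathe axons, fell by 1.83. Both were dim, each well above background in 8 of 13 carcinomas and 5 of 6 normal glands. Of 6 genes of myelin lipid synthesis 1 was lower (16.7%, where 13.3% of all genes were), and the other 5 did not pass. The lower one, Gal3st1, which sulphates galactocerebroside, fell by 0.99 (limma adjusted p = 0.0436). It missed the threshold when any of 12 single arrays was left out.

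Of 10 tested genes of immature and non-myelinating Schwann cells 4 were lower (40%, where 13.3% of all genes were) and 0 higher. The lower ones were S100b, Gap43, Gfra3 and L1cam. Gap43, a growth cone protein, fell by 1.85 (limma adjusted p = 0.0118). Ngfr, the low-affinity neurotrophin receptor, had -0.62 and did not pass, although it did after normexp correction (-0.81, where the median of all genes was -0.38). Cdh19, a cadherin much used to mark Schwann cells, was above background on 0 arrays, and for Scn7a no probe was matched. The arrays thus held RNA of several myelin genes, but which cells it came from was not measured, and Sox10 did not follow the other members. Of 8 tested genes of axons, 1 was lower (12.5%, where 13.3% of all genes were) and 0 were higher. That gene was Th (tyrosine hydroxylase of sympathetic fibres), which fell by 0.76.

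Normal gland 3 was the highest normal gland for Mbp (probe A_64_P017163), Pmp22, Mal, Mag, Lgi4, Gap43, Dhh and Nfasc. Of the 54 list genes with a value in every normal gland it was the highest for 18 (33.3%), where it was the highest for 17.9% of all genes. The mean of 9 skeletal muscle genes was 4.84 in that gland and between -4.17 and -0.46 in the other 5. Without gland 3 the change of Mbp was -3.34 and that of Pmp22 -1.78, with both past the threshold. Gland 3 was also the dimmest of all arrays, with a raw 75th percentile of 290, the next being 430 in normal gland 2. What muscle tissue or array brightness adds to the values of gland 3 was not tested.

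Markers of fat, endothelial, macrophage and T and NK cells were mostly lower in carcinomas, where 13.3% of all genes were lower and 9.57% higher. Of the markers of the other cell types a smaller share passed. All 12 tested fat cell genes were lower in carcinomas (median -6.23), and their mean was -4.26 to -2.50 in carcinomas and 1.72 to 2.73 in normal glands. Adipoq, the adipokine adiponectin, fell by 10.27, and Retn, resistin, fell by 8.56. Of 9 endothelial genes 8 were lower (mean -3.56 to -1.87 in carcinomas and -1.63 to 0.13 in normal glands), as were 7 of 10 macrophage genes (-0.94 to 1.60 and 1.20 to 2.35) and 7 of 11 T and NK cell genes (-5.04 to -2.53 and -3.43 to -1.03). Cldn5 and Lyve1, of blood and lymph vessels, fell by 3.25 and 3.02, Cd163, a macrophage scavenger receptor, fell by 3.21, and Mrc1, the mannose receptor, fell by 1.83. The T and NK cell count was 4 without normal gland 2, 3 or 5, and 0 with brightness as a covariate. Klrd1, a receptor of NK cells, fell by 2.66 but was well above background in 2 of 13 carcinomas against 5 of 6 normal glands. Cd2, an adhesion receptor of T cells, fell by 2.29 and was well above background in 7 of 13 carcinomas and 5 of 6 normal glands. Luminal epithelial genes were higher in 3 of 14 cases (1 without normal gland 2) and lower in 0, with Gata3 up by 1.60 (1.40 without normal gland 2, adjusted p = 0.0683) and Cdh1 by 1.18, and their mean was 1.21 to 3.03 in carcinomas and 1.47 to 2.65 in normal glands. Of 12 basal genes 1 was higher (8.33%, where 9.57% of all genes were), Lamb3 by 1.35, and their median change was 0.35. The mean of the basal genes was -1.92 to 2.13 in carcinomas and -0.01 to 0.78 in normal glands. Carcinoma 7 had the -1.92, and each other carcinoma, at 0.82 or more, lay above every normal gland. Of 13 fibroblast genes 3 were lower and 1 higher (1 lower without normal gland 1, 3 or 5 or carcinoma 9). Of 5 melanocyte genes 2 were lower. Pi16 and Fbln1, of fibroblasts, fell by 3.03 and 1.80, the call of Fbln1 missing the threshold when any of 7 single arrays was left out, and Mlana and Mitf, of melanocytes, fell by 1.95 and 1.02. None of 9 skeletal muscle genes passed. The part of these cells in the changes of Mbp, Pmp22 and S100b was not tested, beyond the correlations among carcinomas given above.

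Close relatives of the members were lower in 5 of 9 cases (55.6%, where 13.3% of all genes were lower) and higher in 0. S100a4, a calcium-binding protein of the S100b family, fell by 3.04, and Emp3, a tetraspan relative of Pmp22, fell by 2.55. For Emp3 every carcinoma lay below every normal gland, as for 1.44% of all probes. Emp1, S100a13 and S100a1 fell by 1.68, 1.13 and 0.96. S100a6 and Emp2 had 0.02 and 0.86, Sox8, the relative of Sox10, had 1.61, and none of these passed.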

How the data were processed

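RNA of 13 carcinomas and 6 normal glands was hybridised to Agilent arrays, 1 sample each, labelled with Cy3. Per the submitters' processing notes and the file headers, the scanner software was Agilent Feature Extraction 10.7.3.1, and the deposited scanner files give background-subtracted spot intensity, median pixel intensity and spot flags. The deposited value table is on the log2 scale and followed the scanner values up to a constant per array. Which step made it is not given in the sources used here.

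Control spots were removed (58717 spots and 30367 probes stayed), and 403 to 1069 spots per array marked uneven or deviating were set missing. Saturated spots numbered 0. The array's 75th percentile was subtracted on the log2 scale and spots were averaged per probe. A probe passed when at least 0.5 of its spots were well above background on 6 arrays, which left 24591 probes and, by the brightest probe per gene, 12803 genes. Symbols came from a RefSeq gene table through array accessions. Groups were compared with limma 3.58.1 in R 4.3.3 with a variance trend, 2-sided, with Benjamini-Hochberg adjustment, and the script was tested on simulated data. Members' changes were compared by exact permutation, and correlations by 100000 permutations (scipy 1.17.1). The number of arrays limits the precision.

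Replicate numbers shared between groups were checked: same-numbered samples' deviations correlated between -0.12 and 0.24, so they were not taken as pairs. Named genes were all probes of the members, the 2 largest called changes of each list, fixed Schwann cell genes, and the 5 genes most alike to each member; some of these genes are not reported here. Other genes were named after their values were seen: Tfap2a, Pou3f1, Mobp, Cadm4, Erbb2, Nrg1, Lamc1, Gfra3, L1cam, Emp1, Emp2, Sox8 and further S100 genes. Members and lists were chosen with earlier results of these data known. Alternatives tried were normexp background correction, quantile normalization, other percentiles and filters, the deposited table, kept spots, no variance trend, slide, scan day, code and brightness terms, single slides, a replicate block, and each array left out.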

Additional observations from a re-analysis of the deposited data

Results flagged for a closer look

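Among 37 probes examined in the normal glands, 4 had a sample set apart from the rest of that group by a gap that is large against the group's whole range, and chance gives about 1 in 20. S100b (probe A_64_P109327) was 1.81 in normal gland 1 and between 1.14 and 1.38 in the other normal glands. Lgi4 was -6.03 in normal gland 2 and between -3.80 and -2.70 in the others. Cldn5, a tight junction gene of endothelium, was 0.33 in normal gland 3 and between -1.21 and -0.78 in the others. Mlana, a melanocyte gene, was 0.39 in normal gland 2 and between -3.88 and -2.65 in the others.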

How the results depend on the processing

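Mbp (probe A_64_P017163), Pmp22 and S100b stayed lower under every alternative run. On slide 3 alone Mbp had -3.42 (limma adjusted p = 0.188) and Sox10 turned to 0.19. Pmp22 missed the threshold on slide 2 (-1.88, adjusted p = 0.0781), slide 3 (-1.90, 0.521) and with brightness as a covariate (-1.95, 0.122). S100b missed it on slides 1, 2 and 3 (-2.49, -3.63 and -4.15, adjusted p of 0.126, 0.158 and 0.327) and with brightness (-5.19, 0.0501). Mbp probe A_64_P017160 passed with normexp (-0.70). Single slides leave few arrays, and brightness went largely with group. For the brightness, normexp and code settings the cause was not tested.

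On slides 1, 2 and 3, limma called 153, 45 and 0 genes higher and 538, 273 and 32 lower; on slide 3, 367 were higher at an unadjusted p under 0.05. With brightness 11 were higher and 170 lower, and with normexp 5297 lower. The 6 lists held 0 higher and 3 lower genes with brightness and 35 lower with normexp. S100b minus Sox10 was -2.88 in number-coded samples (exact permutation test, adjusted p = 0.0639). The correlation of Mbp with Pmp22 turned to -0.0123 with normexp and to -0.0058 with quantile normalization. Changes reversed for Egr2 on slide 2 (-1.28) and with brightness (-0.70), Erbb3 with normexp (-0.0058, but 0.37 relative to the median of all genes, which normexp moved to -0.38), Fbln1 on slide 3 (0.58) and Ngfr on slide 1 (0.12).

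Leaving out each array in turn gave -3.95 to -3.34 for Mbp, -0.73 to -0.48 for its other probe, -2.06 to -1.78 for Pmp22, -3.81 to -3.25 for S100b and -0.28 to -0.03 for Sox10. Counts ran between 653 and 1428 genes higher and 1097 and 1847 lower, and in the lists between 2 and 7 higher and 11 and 19 lower. Mbp minus S100b ran between -0.53 and 0.19, and Pmp22 minus S100b between 1.36 and 1.84. Correlations of Mbp ran between -0.13 and 0.20 with Pmp22 and between -0.21 and 0.31 with S100b.

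With replicate number as a block over 12 arrays, the changes were -3.74 for Mbp, -1.58 for Pmp22 and -2.19 for S100b (limma adjusted p = 0.000193, 0.00799 and 0.0257). Without the block the same arrays gave adjusted p of 0.000794, 0.00427 and 0.0201. Of the 6 numbers, same-numbered samples correlated best with each other for 1, and the pairing is not taken as part of the design.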
